A study of Homo sapiens with 5 samples.

Results

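The transcripts described here are those of 35 apoptosis regulators: the BCL2 family, 5 caspases, the mitochondrial proteins that act on caspases, the caspase inhibitors and a pair of death receptor adaptors. They were chosen by gene symbol, and all 35 had exactly 1 row among the 28442 gene rows of the deposited table. The cells were of the established line TOV21G, grown from a human clear cell carcinoma of the ovary, and the series asked how interference with HDAC6, a mainly cytoplasmic deacetylase, changes the transcriptome. One library came from cells with a hairpin RNA against HDAC6 (shHDAC6), and one each from cells given ACY1215 or CAY10603, small-molecule inhibitors of the enzyme. Cells with a control hairpin (shControl) and cells given only the vehicle were the controls. The title of the series speaks of ARID1A-mutated ovarian cancers, and the sample labels give no genotype. Virus-infected cells were selected with puromycin, which the drug-treated cells are not said to have received. The labels name a pair of HDAC6 hairpins without saying which one this library carries, and give no dose and no time. Each treatment has 1 library, and nothing says that separate cultures were pooled or repeated, so the spread between libraries may be technical.

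Apoptosis through mitochondria is decided within the BCL2 family. The anti-apoptotic members BCL2, BCL2L1 (BCL-XL), BCL2L2 (BCL-W), MCL1 and BCL2A1 hold the pore-forming members BAX and BAK1 in check, and the BH3-only members release that hold. Once the outer mitochondrial membrane is permeable, cytochrome c (CYCS) joins APAF1 to activate caspase 9, while DIABLO and HTRA2 relieve the block that XIAP and its relatives put on caspases. Death receptors reach caspase 8 and caspase 10 through the adaptor FADD, and CFLAR holds that step back.

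Total counts lay between 43498805 (vehicle) and 57442767 (shControl). HDAC6 stood at 29.2 CPM (counts scaled to library size with the TMM method) in the library labelled shHDAC6 against 48.0 CPM in shControl, a log2 fold of -0.72. It stood at 33.1 CPM in ACY1215 and 48.2 CPM in CAY10603 against 51.0 CPM in vehicle. The 12 clear cell carcinoma markers summed to between 1220 and 1650 CPM, of which TFPI2 alone held between 438 and 886 CPM. Among them PAX8 lay between 103 and 144 CPM, while NAPSA stayed at or under 0.398 CPM and KRT7 at or under 0.815 CPM in every library, and LEFTY1 at or under 0.0672 CPM. The 10 leukocyte markers summed to between 2.50 and 5.99 CPM, the 8 endothelial ones to between 0.632 and 1.34 CPM, and the 5 erythroid ones to at most 0.157 CPM. The sum of 8 fibroblast markers was 41.9 CPM in ACY1215 and 38.8 CPM in CAY10603 against 28.9 CPM in vehicle. It was 26.5 CPM in shHDAC6 against 28.4 CPM in shControl. Most of it was COL1A2, at 31.7 CPM in ACY1215, 33.6 in CAY10603, 22.9 in vehicle, 22.1 in shHDAC6 and 23.6 in shControl. In such bulk libraries, fewer cells that express a gene and less RNA per cell cannot be told apart.

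Levels were set between genes by the authors' FPKM, a read density per kilobase of transcript scaled to library size, compared only within a library. A range of FPKM shows spread only, because the order of the libraries can differ from that in CPM. MCL1, a short-lived anti-apoptotic protein, led its group at 78.6 FPKM in shHDAC6, 80.8 in shControl, 93.1 in ACY1215, 80.7 in CAY10603 and 76.7 in vehicle. BCL2L1 followed in each library, between 47.6 FPKM (vehicle) and 62.4 FPKM (shHDAC6). MCL1 made up between 52.9% and 58.2% of the summed FPKM of the 5 anti-apoptotic genes, and BCL2L1 between 35.8% and 42.0%. The read-through row BCL2L2-PABPN1, which shares exons with BCL2L2, held 37.5 to 46.0 FPKM and is not in that sum. How the shared reads were assigned can therefore change these shares. BCL2 itself, the founding member, held only 1.31% to 1.81% of that sum, at 2.09 to 2.68 FPKM, and ranked between 10327 and 10830 of the 13449 genes tested. BCL2A1 was near the limit of detection, with 7 counts in CAY10603, 2 in ACY1215 and 0 in the other 3 libraries, where a count of 0 allows up to 3 counts as a one-sided 95% limit.

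Among the pore-forming genes BAX ranked above BAK1, and BAK1 above BOK, in all 5 libraries. The ratio of BAX to BAK1 FPKM was 2.08 in shHDAC6 against 1.96 in shControl, and 1.29 in ACY1215 and 2.04 in CAY10603 against 2.44 in vehicle. Among BH3-only genes BBC3 (PUMA), which can bind all the anti-apoptotic members, was the most abundant in every library, between 14.3 FPKM (ACY1215) and 23.9 FPKM (shControl). PMAIP1 (NOXA), which binds MCL1, lay between 6.83 and 15.0 FPKM, and BID, the link from caspase 8 to mitochondria, between 7.70 and 12.6 FPKM. HRK was nearly silent, with 2 to 10 counts per library.

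CASP8, the initiator of the death receptor route, was the caspase with the highest level, between 73.1 FPKM (shHDAC6) and 92.7 FPKM (shControl), and ranked between 957 and 1148 of 13449 genes. CASP6 followed at 16.5 to 20.8 FPKM and CASP9, the initiator of the mitochondrial route, at 5.05 to 11.1 FPKM. CASP2 stayed below CASP9 throughout, at 2.52 to 4.07 FPKM. CASP10 lay between CASP9 and CASP2 in shControl, CAY10603 and vehicle, below both in shHDAC6 (3.26 FPKM) and above both in ACY1215 (6.73 FPKM). Among caspase inhibitors BIRC2 (cIAP1) was first and XIAP last in every library, at 62.8 to 70.4 FPKM and 8.74 to 12.7 FPKM. CYCS led the mitochondrial proteins with 50.9 to 76.0 FPKM.

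Ratios of FPKM within a library gave the balance of the roles as a description. The summed FPKM of the anti-apoptotic genes was 3.59 times that of the 3 pore-forming genes in shHDAC6 against 4.71 times in shControl, and 5.97 times in ACY1215 and 6.33 times in CAY10603 against 5.3 times in vehicle. The ratio was thus lowest in shHDAC6, the library with the most BAX and BAK1. The anti-apoptotic sum leaves out the read-through row BCL2L2-PABPN1. The ratio of CASP8 to CASP9 was 8.03 in shHDAC6 against 14.7 in shControl, and 17.8 in ACY1215 and 10.6 in CAY10603 against 7.45 in vehicle. Here the controls stood farther apart from each other than shHDAC6 from vehicle. XIAP over its antagonist DIABLO was 0.376 in shHDAC6 against 0.288 in shControl, and 0.201 in ACY1215 and 0.330 in CAY10603 against 0.283 in vehicle. CASP8 over its inhibitor CFLAR varied less, from 1.83 in shHDAC6 to 2.26 in shControl.

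**Figure D1:**
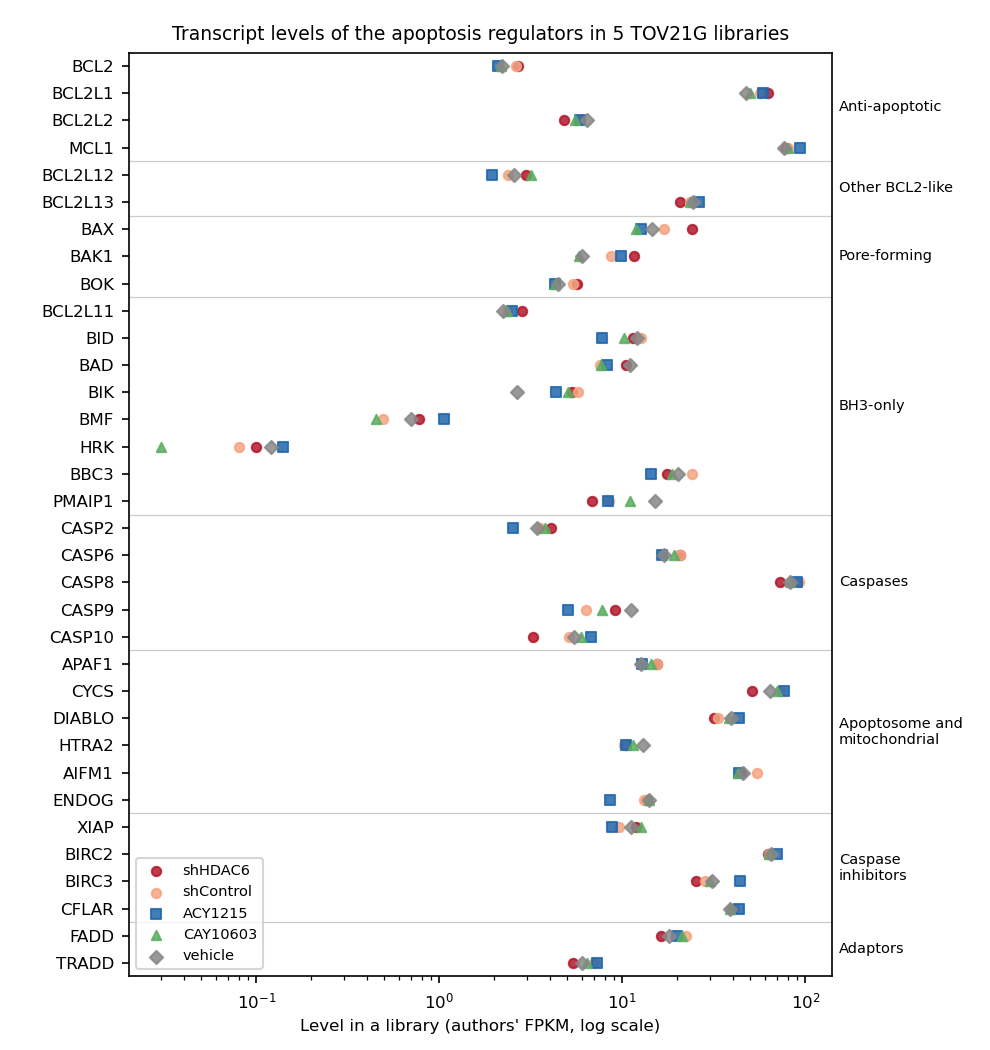
Authors' FPKM (log axis) of 34 apoptosis regulators, grouped by role, with 1 point for each library; BCL2A1, listed at 0 in 3 libraries, is not drawn. MCL1, CASP8 and CYCS stand near the top of their groups in all 5 libraries, while BCL2 stays between 2.09 and 2.68 FPKM.

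How far the genes varied over the 5 libraries was described by the ratio of the highest to the lowest CPM. Of the 35 members, 30 had a mean of at least 5 CPM, the floor used for folds between single libraries. Their median ratio was 1.38, and that of all 10740 genes past the same floor was 1.36. Only BAX (2.04), CASP9 (2.08) and PMAIP1 (2.15) reached 2, which is 10% of the members against 8.32% of all genes. As a group these genes therefore varied about as much as the rest of the transcriptome.

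Set over all 3 interventions together, repressed HDAC6 against control gave no call among these genes. In the edgeR quasi-likelihood test, adjusted for experiment type (shRNA or drug), 0 of 33 members tested had an adjusted p under 0.05, as did 0% of all 13449 genes. DESeq2 and limma-voom called 0 members as well. At an unadjusted p under 0.05 each of the 3 tools had 1 member, which for edgeR was PMAIP1 (log2 fold -0.45, standard error 0.18, unadjusted p = 0.045, adjusted p = 1.00), against 0.744% of all genes. The median pooled log2 fold of the members was 0.03 and that of all genes 0.00. The fit has 2 residual degrees of freedom, and what sets one intervention apart from another is part of its spread.

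PMAIP1 stood at 11.9 CPM in shHDAC6, 15.3 CPM in ACY1215 and 19.5 CPM in CAY10603, against 14.7 CPM in shControl and 25.7 CPM in vehicle. It was thus lower than its own control in each intervention, but CAY10603 and ACY1215 lay above shControl, so the groups overlapped. BBC3 had all 3 repressed libraries below both controls, at 23.1 CPM in shHDAC6, 18.7 CPM in ACY1215 and 23.5 CPM in CAY10603, against 30.2 CPM in shControl and 24.2 CPM in vehicle. BID did too, at 22.3 CPM in shHDAC6, 15.5 CPM in ACY1215 and 20.3 CPM in CAY10603, against 24.6 CPM in shControl and 23.1 CPM in vehicle. These 2 of 30 members (4.57% of all genes were below both controls) had pooled log2 folds of -0.28 with a standard error of 0.17 for BBC3 and -0.27 with a standard error of 0.18 for BID, each at an edgeR adjusted p = 1.00. The gaps to vehicle were within counting error for BBC3 in shHDAC6 and CAY10603 and for BID in shHDAC6. BIRC2 alone was above both controls (4.93% of all genes were), by 201 to 232 CPM against 198 CPM in each control, a gap within counting error for shHDAC6 and CAY10603. BAK1 had the largest upward pooled fold of members past the floor, 0.44 (standard error 0.26, edgeR adjusted p = 1.00), with overlapping groups.

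Knockdown was described by shHDAC6 and shControl, with 1 library on each side and so no test. No member of 30 was at least 1.5-fold apart, where 5.02% of all genes were. The members' median log2 fold was -0.04 and that of all genes 0.00, with 14 members higher and 16 lower. The largest differences on the higher side were those of BAD, BAX and CASP9, and on the lower side that of CYCS.

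BAX, one of the pore-forming proteins, stood at 16.2 CPM (95% counting interval 15.2 to 17.4) in shHDAC6 against 11 CPM (10.2 to 11.9) in shControl, a log2 fold of 0.56 with a counting interval of 0.41 to 0.71. It was lower in the 3 libraries of the drug experiment, at 8.75 CPM in ACY1215 and 7.98 CPM in CAY10603 against 9.40 CPM in vehicle. BAX was therefore highest in shHDAC6 of all 5 libraries, and shControl came next. BAD, a BH3-only protein that neutralises BCL2 and BCL2L1, had 8.49 CPM in shHDAC6 against 5.72 CPM in shControl (log2 fold 0.57, counting interval 0.36 to 0.78). The vehicle library, however, held BAD at 8.22 CPM, close to the shHDAC6 value. Exons of BAD overlap those of GPR137 on the opposite strand, a row with 5.34 CPM in shHDAC6 against 4.65 CPM in shControl. BAK1 had 23.1 CPM in shHDAC6 against 17.3 CPM in shControl, and CASP9 had 25.6 CPM against 17.6 CPM (log2 folds 0.41 and 0.54). With BOK at a log2 fold of 0.08, all 3 pore-forming genes were on the higher side, BOK within counting error (-0.07 to 0.23). All 3 were also higher in shControl than in vehicle, with log2 folds of 0.23 for BAX, 0.56 for BAK1 and 0.29 for BOK.

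CYCS, cytochrome c, stood at 268 CPM in shHDAC6 against 386 CPM in shControl, a log2 fold of -0.53 (counting interval -0.56 to -0.50). This was its lowest value of the 5 libraries, since ACY1215 had 425 CPM and CAY10603 377 CPM against 336 CPM in vehicle. Cytochrome c has many processed pseudogenes in the human genome, so its reads can be split between copies. The adaptors of the death receptor route were on the lower side as well, FADD with 27.1 CPM in shHDAC6 against 36.9 CPM in shControl and TRADD with 6.99 CPM against 9.18 CPM, log2 folds of -0.44 and -0.39. BBC3 had a log2 fold of -0.38 and PMAIP1 of -0.31, while BAD and BCL2L11 (BIM), with 0.23, were on the other side, so the BH3-only genes lay on both sides. Anti-apoptotic genes lay closer to shControl, with log2 folds of 0.16 for BCL2, 0.09 for BCL2L1, -0.05 for MCL1 and -0.30 for BCL2L2. The BCL2L2 value is uncertain, because the read-through row BCL2L2-PABPN1, which shares its exons, was larger, at 82.8 CPM in shHDAC6 against 87.7 CPM in shControl, than BCL2L2 at 15.8 CPM against 19.5 CPM.

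XIAP, the inhibitor of caspase 9 and of the executioner caspases, had 95.8 CPM in shHDAC6 against 78.5 CPM in shControl (log2 fold 0.29). BIRC2, BIRC3 and CFLAR had log2 folds of 0.02, -0.17 and -0.18. For CASP10 the counts and the FPKM differed in size, with a log2 fold of -0.28 in counts and -0.64 on the log2(FPKM + 0.1) scale, so the size of that difference is uncertain. The 20 G2 and M phase genes of the marker list summed to 3590 CPM in shHDAC6 against 2670 CPM in shControl, with 3820 CPM in vehicle. Their part in the values above was not tested.

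**Figure D2:**
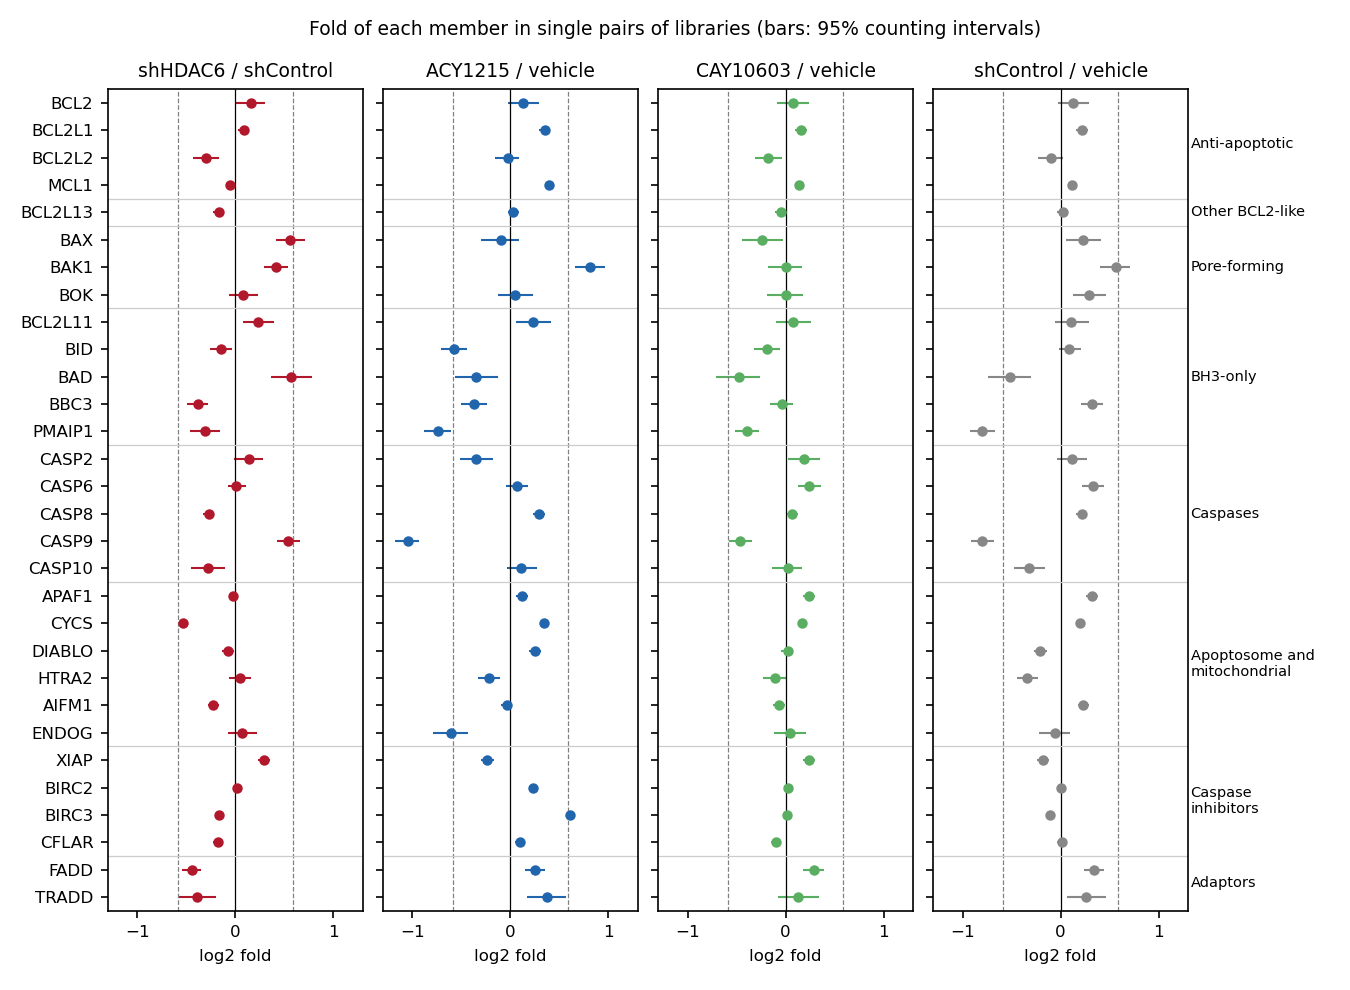
Log2 fold of TMM-scaled CPM (prior count 2) of the 30 members past the floor, in the 3 interventions against their own control and in shControl against vehicle; bars are 95% counting intervals and dashed lines mark 1.5-fold. No member passes the dashed lines for shHDAC6 or CAY10603, while 5 do for ACY1215 and 2 for the controls against each other.

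ACY1215 against vehicle gave the most differences. Of 30 members, 5 were at least 1.5-fold apart (16.7%, where 13.6% of all genes were), 2 on the higher side (5.86% of all genes) and 3 on the lower (7.76%). The median log2 fold of the members was 0.08, against 0.00 for all genes, with 18 members higher and 12 lower. The members' share was close to that of the whole transcriptome. The higher ones were BAK1, a pore-forming protein, and BIRC3 (cIAP2), a ubiquitin ligase that inhibits apoptosis downstream of TNF receptors. The lower ones were CASP9, PMAIP1 and ENDOG, a mitochondrial nuclease.

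BIRC3 stood at 309 CPM (95% counting interval 304 to 314) in ACY1215 and 205 CPM (201 to 209) in CAY10603 against 203 CPM (198 to 207) in vehicle, and at 168 CPM in shHDAC6 against 188 CPM in shControl. ACY1215 was far above the other 4 libraries, with a log2 fold of 0.61 against vehicle and 0.71 against shControl. ENDOG had 8.60 CPM (7.82 to 9.43) in ACY1215 and 13.6 CPM in CAY10603 against 13.2 CPM in vehicle, and 13.2 CPM in shHDAC6 against 12.6 CPM in shControl. Here too ACY1215 stood apart, on the lower side, with log2 folds of -0.61 against vehicle and -0.55 against shControl. Exons of ENDOG overlap those of C9orf114 on the opposite strand in GENCODE 29, a row with 18.9 CPM in ACY1215 against 19.6 CPM in vehicle, and the strand setting of the counting is not given in the sources used here. BID, just under the threshold, had a log2 fold of -0.58 against vehicle and -0.67 against shControl.

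For the other 3 genes the control library decided the size. BAK1 had 20.7 CPM in ACY1215 and 11.7 CPM in CAY10603 against 11.8 CPM in vehicle, with 23.1 CPM in shHDAC6 against 17.3 CPM in shControl. Its ACY1215 log2 fold was 0.81 against vehicle but 0.26 against shControl. CASP9 had 14.8 CPM in ACY1215 and 22.3 CPM in CAY10603 against 30.7 CPM in vehicle, and shControl, at 17.6 CPM, was close to ACY1215. Its log2 fold was -1.05 against vehicle, the only member past 2-fold (4.71% of all genes were), and -0.25 against shControl. PMAIP1, with 15.3 CPM in ACY1215 against 25.7 CPM in vehicle, had -0.74 against vehicle and 0.05 against shControl, which turns the direction. The vehicle library had the highest CASP9 and PMAIP1 of all 5 libraries.

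With both controls as the yardstick, BIRC3 was the only member of 30 at least 1.5-fold apart from each of them in ACY1215, where 6.12% of all genes were. That place depends on the scaling, since its log2 fold against vehicle was 0.51 with total counts and 0.50 with FPKM, both under 1.5-fold. For shHDAC6 and CAY10603 the count was 0 of 30, where 1.2% and 0.140% of all genes were.

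**Figure D3:**
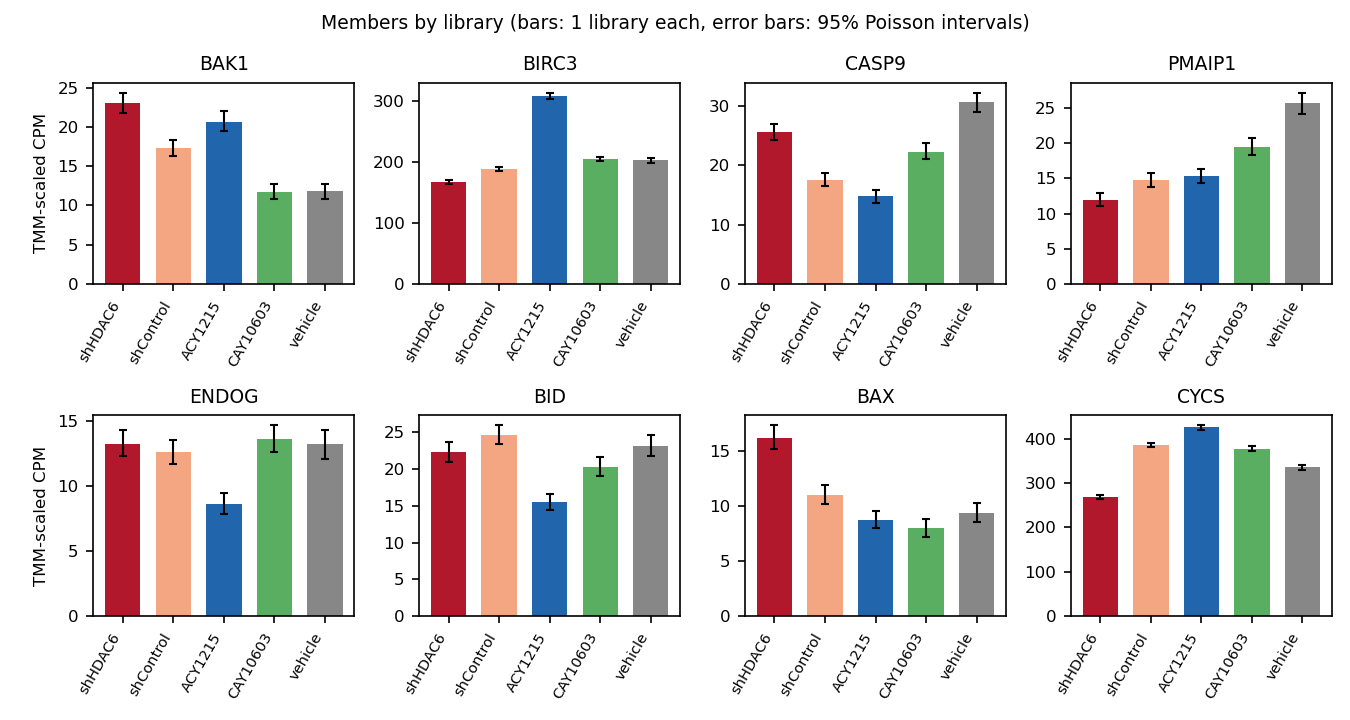
TMM-scaled CPM of 8 members in each library, with 95% Poisson intervals for counting error. ACY1215 stands apart from the other 4 libraries for BIRC3 (309 CPM), ENDOG (8.60 CPM) and BID (15.5 CPM), while for CASP9 and PMAIP1 vehicle is the highest.

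**Figure D4:**
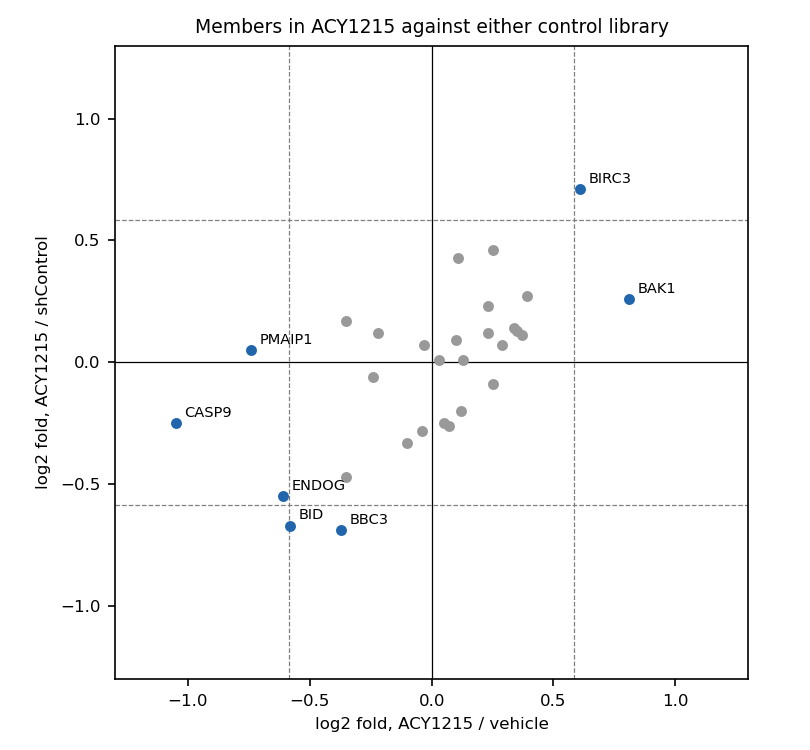
Log2 fold of the 30 members in ACY1215 against vehicle (horizontal axis) and against shControl (vertical axis); both axes share the ACY1215 library, dashed lines mark 1.5-fold, and named points are at least 0.5 from 0 on either axis. BIRC3 is outside the lines on both axes, whereas CASP9 (-1.05 and -0.25), PMAIP1 (-0.74 and 0.05) and BAK1 (0.81 and 0.26) are outside only against vehicle.

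The sequences around the start sites of these 5 genes are shown because they are the members past the 5 CPM floor with the largest differences between ACY1215 and vehicle. They are RefSeq promoter windows on GRCh38.p14, from 250 bases before to 50 bases after the start, printed in the direction of the gene. BAK1 lies at chr6:33580227-33580526 on the minus strand, BIRC3 at chr11:102317234-102317533 on the plus strand, CASP9 at chr1:15524166-15524465 on the minus strand (the first of 2 starts in the table), PMAIP1 at chr18:59899746-59900045 on the plus strand and ENDOG at chr9:128818250-128818549 on the plus strand. In BAK1, CASP9, PMAIP1 and ENDOG capitals mark GC boxes (GGGCGG) and CCAAT boxes (CCAAT), and in BIRC3, which holds neither, they mark a kappaB-like motif (GGG, any 5 bases, CC), each on both strands.
BAK1: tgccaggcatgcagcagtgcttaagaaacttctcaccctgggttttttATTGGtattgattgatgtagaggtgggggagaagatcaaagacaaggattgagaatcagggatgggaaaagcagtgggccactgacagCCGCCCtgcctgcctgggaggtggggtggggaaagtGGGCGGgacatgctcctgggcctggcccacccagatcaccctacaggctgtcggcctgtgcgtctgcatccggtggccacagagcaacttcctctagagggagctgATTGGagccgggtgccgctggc
BIRC3: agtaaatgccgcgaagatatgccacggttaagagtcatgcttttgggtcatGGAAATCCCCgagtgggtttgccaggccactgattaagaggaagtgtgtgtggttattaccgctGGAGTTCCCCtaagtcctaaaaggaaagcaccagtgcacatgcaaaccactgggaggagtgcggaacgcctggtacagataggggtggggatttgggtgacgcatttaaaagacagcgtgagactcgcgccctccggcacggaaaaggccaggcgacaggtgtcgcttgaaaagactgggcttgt
CASP9: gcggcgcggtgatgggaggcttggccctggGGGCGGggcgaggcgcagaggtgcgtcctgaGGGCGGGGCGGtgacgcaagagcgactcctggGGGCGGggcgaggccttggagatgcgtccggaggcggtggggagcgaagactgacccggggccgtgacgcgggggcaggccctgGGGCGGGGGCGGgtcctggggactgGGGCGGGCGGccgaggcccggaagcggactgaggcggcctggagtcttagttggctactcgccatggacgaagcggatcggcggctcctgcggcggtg
PMAIP1: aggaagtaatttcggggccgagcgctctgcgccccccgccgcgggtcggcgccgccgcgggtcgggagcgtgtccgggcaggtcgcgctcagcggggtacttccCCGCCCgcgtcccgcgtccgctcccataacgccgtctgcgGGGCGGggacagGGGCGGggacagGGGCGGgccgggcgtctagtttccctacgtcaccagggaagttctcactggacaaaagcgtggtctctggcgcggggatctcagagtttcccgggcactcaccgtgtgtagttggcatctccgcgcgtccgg
ENDOG: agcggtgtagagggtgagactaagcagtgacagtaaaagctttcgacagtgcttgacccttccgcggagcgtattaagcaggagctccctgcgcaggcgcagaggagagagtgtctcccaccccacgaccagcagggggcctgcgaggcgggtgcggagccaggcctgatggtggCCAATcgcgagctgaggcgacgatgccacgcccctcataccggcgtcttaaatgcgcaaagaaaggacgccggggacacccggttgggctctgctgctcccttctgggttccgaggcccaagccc

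The windows differ in kind. Those of CASP9 and PMAIP1 are rich in CpG dinucleotides (36 and 42), ENDOG has 23 and BIRC3 15, and BAK1 has 7, where the median over 35116 windows is 14. GC boxes numbered 8 in CASP9, counting overlapping copies, 4 in PMAIP1 and 2 in BAK1, and 45% of all windows hold at least 1. CCAAT boxes numbered 2 in BAK1 and 1 in ENDOG (34.6% of all windows hold one). The BIRC3 window holds 2 copies of the kappaB-like motif, but 58.7% of all windows hold at least 1, those of the other 4 genes among them, where it is not marked and can overlap a GC box. A match of letters describes the window only.

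The remaining ACY1215 folds were below 1.5-fold but mostly larger than counting error. MCL1 had 353 CPM in ACY1215 and 297 CPM in CAY10603 against 270 CPM in vehicle, with 282 CPM in shHDAC6 against 293 CPM in shControl. BCL2L1 had 109 CPM in ACY1215 and 96.0 CPM in CAY10603 against 85.8 CPM in vehicle, with 106 CPM in shHDAC6 against 99.7 CPM in shControl. For both genes vehicle was the lowest library and ACY1215 the highest, with log2 folds of 0.39 and 0.35. BCL2 (0.13) and BCL2L2 (-0.03) lay close to vehicle. Of the 5 BH3-only genes past the floor 4 were lower than vehicle, BID, BAD (-0.35), BBC3 (-0.37) and PMAIP1, and BCL2L11 was higher (0.23). Of all 10740 genes past the floor, 5370 were lower. Against shControl only BID (-0.67) and BBC3 (-0.69) were lower, while BAD (0.17), PMAIP1 (0.05) and BCL2L11 (0.12) were higher. Under the floor, BIK (0.79) and BMF (0.68) were higher than vehicle.

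CASP8 had 118 CPM in ACY1215 and 101 CPM in CAY10603 against 96.6 CPM in vehicle, with 93.0 CPM in shHDAC6 against 112 CPM in shControl. The log2 folds of CASP8 (0.29), CYCS (0.34), DIABLO (0.25), FADD (0.25) and TRADD (0.37) were all on the higher side in ACY1215, and each had its lowest level of the 5 libraries in shHDAC6. XIAP (-0.24) and CASP2 (-0.35) were lowest in ACY1215. Several members stayed well under 1.5-fold in each intervention, though some of their folds were beyond counting error. Among those were APAF1 in CAY10603 (counting interval 0.18 to 0.30) and AIFM1 in shHDAC6 (-0.28 to -0.17). APAF1, the scaffold of the apoptosome, had log2 folds of -0.02 in shHDAC6, 0.12 in ACY1215 and 0.24 in CAY10603. AIFM1, a mitochondrial flavoprotein that can move to the nucleus, had -0.23, -0.04 and -0.07 in the same order, HTRA2, a mitochondrial serine protease, had 0.05, -0.22 and -0.11, and BCL2L13, a BCL2-like protein of the outer mitochondrial membrane, had -0.17, 0.03 and -0.05. CASP6, an executioner caspase, had 0.01, 0.07 and 0.24, and BOK had 0.08, 0.05 and 0.00. The HTRA2 exons overlap those of AUP1 on the opposite strand, a row with 58.9 to 71.2 CPM.

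Over the 30 members ACY1215 was the highest library for 11 and the lowest for 6, and shHDAC6 was the highest for 8 and the lowest for 11. Over all genes the shares were 27.5% and 30.0% for ACY1215 and 25.9% and 23.3% for shHDAC6. The G2 and M phase genes had a sum of 1610 CPM in ACY1215 against 3820 CPM in vehicle, where CAY10603 had 3770 CPM, and their part in the values above was not tested.

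CAY10603 and vehicle differed little in these genes. No member of 30 was at least 1.5-fold apart, where 1.04% of all genes were. The median log2 fold was 0.02 against 0.01 for all genes, with 17 members higher and 13 lower. The lower end was held by BAD (-0.48), CASP9 (-0.46) and PMAIP1 (-0.39), and the higher end by FADD (0.29), CASP6, APAF1 and XIAP (0.24 each). BAD had 5.87 CPM in CAY10603 against 8.22 CPM in vehicle, and shControl held 5.72 CPM. XIAP had 105 CPM in CAY10603 against 88.8 CPM in vehicle, the highest of the 5 libraries. Since the doses and times of ACY1215 and CAY10603 are not given, their values are set side by side and not compared.

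The controls differed from each other for some of the same genes, although neither had an HDAC6 intervention. Of 30 members 2 were at least 1.5-fold apart between shControl and vehicle (6.74% of all genes were), and both were lower in shControl (3.93% of all genes). None reached 2-fold, where 1.41% of all genes did. CASP9 had 17.6 CPM in shControl against 30.7 CPM in vehicle and PMAIP1 14.7 CPM against 25.7 CPM, each a log2 fold of -0.80. BAK1 was close to the threshold on the other side, with a log2 fold of 0.56, and BAD had -0.52. The median log2 fold of the members was 0.11, against 0.02 for all genes. CASP9, PMAIP1, BAK1 and BAD thus differed between the controls by as much as, or not far from, what they differed between an intervention and its control.

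**Figure D5:**
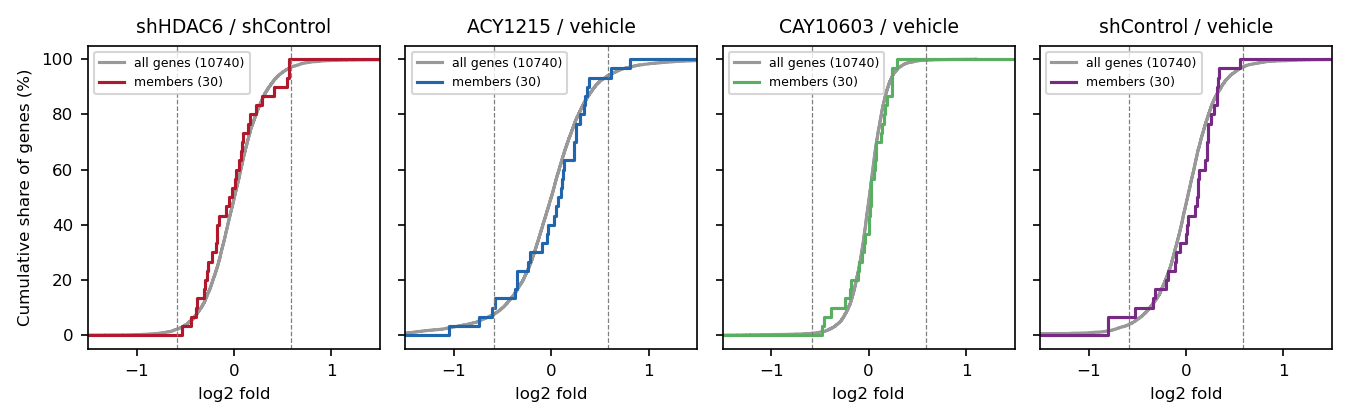
Cumulative share of genes (vertical axis, percent) by log2 fold (horizontal axis) in each pair of libraries, for all 10740 genes past the floor and for the 30 members; dashed lines mark 1.5-fold. The members follow the curve of all genes in each pair, with medians of -0.04, 0.08, 0.02 and 0.11 against 0.00, 0.00, 0.01 and 0.02.

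Members under the floor of 5 CPM were BCL2A1, BCL2L12, BIK, BMF and HRK. BIK, a BH3-only protein of the endoplasmic reticulum, had 4.19 CPM in shHDAC6 against 4.35 CPM in shControl, and 3.49 CPM in ACY1215 and 3.91 CPM in CAY10603 against 1.99 CPM (1.60 to 2.45) in vehicle. The vehicle library was alone in its low level, so the log2 folds of 0.79 and 0.96 in the drugs come with one of 1.11 for shControl against vehicle. BMF, a BH3-only protein tied to the cytoskeleton, had 3.26 CPM in shHDAC6 against 2.05 CPM in shControl, and 4.81 CPM in ACY1215 and 2.03 CPM in CAY10603 against 2.98 CPM in vehicle. It was highest in ACY1215, with log2 folds of 0.68 against vehicle and 1.22 against shControl. BCL2L12 had 4.70 CPM in shHDAC6 against 3.80 CPM in shControl, and 3.06 CPM in ACY1215 and 4.96 CPM in CAY10603 against 3.67 CPM in vehicle. Its exons overlap those of IRF3 on the opposite strand, a row with 16.1 to 22.4 CPM.

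The knockdown and the drugs were then compared in 1 fit. The log2 fold of CASP9 was 0.54 in shHDAC6, -1.05 in ACY1215 and -0.46 in CAY10603. In the same order it was -0.53, 0.34 and 0.17 for CYCS, and -0.44, 0.25 and 0.29 for FADD. Such opposite signs of the knockdown and both drugs held for 13 of 30 members (43.3%), close to the 44.3% of all genes. An edgeR fit with an interaction of intervention and experiment type, chosen after these values were seen, called 0 of 33 members at an adjusted p under 0.05, where 0.00744% of all genes were called. At an unadjusted p under 0.05 it had 1 member, CASP9 (difference of log2 folds, drug minus shRNA, -1.27, edgeR adjusted p = 0.97), where 2.55% of all genes had one. That fit has 1 residual degree of freedom, from the gap between the drug libraries.

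Genes around the members in the pathway were followed as further lists. Of 9 death ligand and receptor genes past the floor, 2 were at least 1.5-fold apart in ACY1215, both higher, and 0 in shHDAC6 and CAY10603. Over all genes these shares were 13.6% in ACY1215, 5.02% in shHDAC6 and 1.04% in CAY10603. The receptors were TNFRSF21 (DR6), with 31.0 CPM in ACY1215 and 18.5 CPM in CAY10603 against 13.4 CPM in vehicle, and TNFRSF10D, a decoy receptor for TRAIL, with 139 CPM in ACY1215 and 78.5 CPM in CAY10603 against 63.3 CPM in vehicle. shControl lay between, at 20.5 CPM for TNFRSF21 and 93.7 CPM for TNFRSF10D. Of 14 genes of death receptor signalling complexes, 0 were that far apart in any intervention.

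Of 11 execution phase genes only LMNB1, a nuclear lamin cut by caspases, was 1.5-fold apart in ACY1215. It had 162 CPM there against 329 CPM in vehicle (log2 fold -1.02). Of 16 mitochondrial channel and BCL2-associated genes only BNIP3 was, at 310 CPM in ACY1215 against 202 CPM in vehicle (0.62), and of 15 genes acting on BCL2 family proteins only YWHAB, a 14-3-3 protein that can bind BAD, at 285 CPM against 189 CPM (0.59). Each of these 3 lists had 0 such genes in shHDAC6 and CAY10603. Over all genes 13.6% were apart in ACY1215, 5.02% in shHDAC6 and 1.04% in CAY10603. Between shControl and vehicle (6.74% of all genes), 2 of the 11 execution phase genes were apart, LMNA (0.63) and SPTAN1 (0.60). Of the 16 genes 0 were, and of the 15 only YWHAB was (0.65). In shControl LMNB1 stood at 258 CPM, BNIP3 at 255 CPM and YWHAB at 296 CPM, so YWHAB was higher there than in ACY1215. Of 8 transcriptional regulators upstream of BH3-only genes, 4 were apart in ACY1215 (13.6% of all genes were), 1 in CAY10603 (1.04%) and 1 in shHDAC6 (5.02%). For shControl against vehicle, 3 of the 8 were apart (6.74% of all genes). Of the 20 G2 and M phase genes, 19 were apart in ACY1215, all lower, 0 in CAY10603 and 8 in shHDAC6, all higher. Between shControl and vehicle 8 were, all lower in shControl (3.93% of all genes). DDIT3 (CHOP), a factor of the unfolded protein response, had 7.58 CPM in ACY1215 and 11.1 CPM in CAY10603 against 20.4 CPM in vehicle, with 9.66 CPM in shHDAC6 against 8.83 CPM in shControl. As for PMAIP1, the vehicle library was the highest. E2F1 had 2.43 CPM in ACY1215 against 5.31 CPM in vehicle and 7.37 CPM in shHDAC6 against 4.72 CPM in shControl, and MYC had 189 CPM in ACY1215 against 115 CPM in vehicle. None of the genes named from these lists passed the pooled edgeR test (adjusted p = 1.00 for each).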

How the data were processed

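RNA-seq of total RNA (isolated in Trizol, made into stranded libraries, per the labels' protocols) was deposited as 1 gene table. It holds expected counts as whole numbers, headed count per the file headers, and the authors' FPKM per the file headers. RSEM 1.2.3, edgeR and hg19 are named in the submitters' processing notes, with no role given. For the aligner, annotation and strand setting: not given in the sources used here. DMSO, a column header, was taken for the only vehicle sample. The 2 blank rows were left out, and columns of unknown samples numbered 0.

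Counts were used as deposited. The labels put shHDAC6, ACY1215 and CAY10603 in a repressed group and shControl and vehicle in a control group, and they were tested with edgeR 4.0.16 in R 4.3.3 (TMM, robust quasi-likelihood, adjusted for experiment type). The 13449 genes that reached 1 CPM in 2 or more libraries entered, with Benjamini-Hochberg adjustment over all of them. Single pairs, with no test, used log2 folds of TMM-scaled CPM (prior count 2). Here a gene needed a mean CPM of 5 or more, and a difference of at least 1.5-fold was counted. Poisson and binomial intervals (95%) cover counting error only. DESeq2 1.42.0 and limma 3.58.1 were alternatives. Promoter windows are RefSeq's (GRCh38.p14), matched by symbol for 30 of 35 members, and exon overlaps are from GENCODE 29. Of the 35 members 19 have exons that overlap another gene there. The members, the lists and the rule for named genes (all members, and up to 4 genes of each further list past 1.5-fold) were chosen with earlier results of these data known.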

Additional observations from a re-analysis of the deposited data

How the results depend on the processing

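No paired analysis was possible because the labels give no replicate numbers. The experiment type term already sets the knockdown against its own control and the drugs against vehicle, and without it 0 members were called as well. The pooled test called 0 members in all 11 alternatives (other tools, scalings, filters, no covariate), and the range without each replicate in turn was 0 to 0. The median pooled log2 fold of the members ranged from -0.02 to 0.10. The fits without shHDAC6 and without shControl gave the same 0.10, since the experiment type term takes up the shRNA library that remains. Both therefore rest on the drug libraries and vehicle and are not separate checks. For shHDAC6 the 0 members at least 1.5-fold apart became 1 with total counts (BAD), 1 with a mean of at least 1 CPM (BMF) and 1 with FPKM (CASP10). With vehicle in place of shControl the count was 4 (BAK1 and BAX higher, PMAIP1 and CASP10 lower), and with the mean of both controls it was 3. For ACY1215, 5 members were apart. With shControl in place of vehicle there were 3, of which BIRC3 was the 1 shared with the 5, beside BID and BBC3. With the mean of both controls there were 3, BID, CASP9 and BIRC3, of which 2 were shared, and at 2-fold there was 1. With total counts or FPKM the number was 5 again, with BID in place of BIRC3, and the log2 fold of PMAIP1, -0.74 against vehicle, was 0.05 against shControl. For CAY10603 the count was 1 with a mean of at least 1 CPM and 0 in the other alternatives, and for shControl against vehicle the 2 members became 0 at 2-fold. Shares of all genes with an exchanged control, filter or scaling are not given here. The counts of members under those settings therefore cannot be set against a background. With total counts the median of all genes in ACY1215 against vehicle lay at -0.10. The cause of these changes was not tested beyond the exchange of control, filter, scaling or threshold itself. Of 179 alternative values of medians and named members, 151 stayed within counting error or on the same side of the test. The others moved beyond it, some with a change of sign. With vehicle in place of shControl the log2 fold of CASP9 in shHDAC6 went from 0.54 to -0.26. In CAY10603, shControl in place of vehicle took CASP9 from -0.46 to 0.34 and PMAIP1 from -0.39 to 0.40. Members under 5 CPM are limited by their counts, and the absence of repeated libraries limits every single pair.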
